A study of Mus musculus with 11 samples.

Results

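The autophagy machinery was followed through 41 genes in the inguinal fat, a white depot under the skin, of mice lacking Raptor in adipocytes. The rule is a list of gene names with no measured value in it, although the list was drawn up with earlier results of these libraries known. It holds the ULK1 kinase complex, the class III phosphatidylinositol 3-kinase complexes, the membrane suppliers, the WIPI proteins, the conjugation enzymes, the ATG4 proteases, the ATG8 proteins and the cargo receptors. The tables held 52282 genes, and 26960 of them passed a filter on low counts and were tested. All 41 autophagy genes were among the 26960.

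The samples were 11 bulk RNA sequencing libraries of C57BL6/J mice aged 16 weeks. From an age of 8 weeks every mouse ate a high-fat diet for 8 weeks, and every mouse carried floxed Raptor (gene Rptor). The knockouts (KO) also carried Cre recombinase under the adiponectin promoter, which is active in adipocytes, whereas the floxed littermates (WT) did not. KO comprised 3 libraries with rosiglitazone at 30 mg per kg per day and 2 on the diet alone, and WT comprised 3 of each. Rosiglitazone activates PPARG, the nuclear receptor at the head of adipocyte differentiation. In the labels of all 6 WT libraries, title and characteristic disagree on the treatment, each giving what the other does not. Groups follow the characteristic, which the names of the deposited tables match. The labels do not say that each library came from a separate animal, so p-values measure the spread between libraries, part of which may be technical.

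Autophagy encloses cytoplasm, organelles or protein aggregates in a double membrane, the autophagosome, which then fuses with lysosomes. The kinase complex mTORC1, of which Raptor is the subunit that recruits substrates, restrains the process by phosphorylating ULK1 and ATG13 and by keeping the transcription factor TFEB out of the nucleus. In adipocytes, autophagy is known for its part in adipogenesis and for the removal of mitochondria when beige fat turns white.

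Libraries held 13035346 to 40925952 estimated reads, and a single autophagy gene had between 81 reads (Atg10) and 22541 reads (Bnip3) in a library. Values below are CPM, that is reads as a share of the TMM-scaled library size, unless TPM, which also divides by transcript length, is named. The targeted gene Rptor had 88.2, 82.3 and 91.6 CPM in KO with rosiglitazone and 56.5 and 69.5 CPM in KO on the diet alone, against 119, 126 and 110.4 CPM in WT with rosiglitazone and 91.9, 80.0 and 73.8 CPM in WT on the diet alone. These are reads over the whole gene, and which exons were floxed is not given in the labels. Rptor fell by 0.41 ± 0.11 on the log2 scale in KO against WT averaged over the treatments (SE; adjusted p = 0.0403, edgeR quasi-likelihood test), although the KO and WT ranges overlapped. The sum of 21 mature adipocyte markers was 5023 to 15696 CPM in KO and 27345 to 79954 CPM in WT, with no marker at 0 in any library. The tissue thus held adipocyte RNA throughout, and the genotypes did not overlap in its amount. Macrophage markers summed to 1621 to 5124 CPM in KO and 861 to 1677 CPM in WT. Skeletal muscle markers summed to over 5000 CPM in 4 libraries, KO with rosiglitazone 2 (40152), WT with rosiglitazone 2 (10201) and 3 (18953), and WT on the diet alone 2 (15312). In bulk tissue, fewer cells of a type and less RNA per cell cannot be told apart.

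By TPM, Sqstm1, which encodes the cargo receptor p62, had the highest mean of the autophagy genes over all KO libraries, with 100.3 ± 38.7 TPM (SD, n = 5), and the second in WT, with 150.0 ± 24.3 TPM (SD, n = 6). The order of Sqstm1 and Gabarap, an ATG8 gene, was not settled in either KO arm, as their means lay within each other's SDs. With rosiglitazone Sqstm1 had 79.2 ± 21.2 TPM and Gabarap 65.8 ± 27.0 TPM (SD, n = 3). On the diet alone Sqstm1 had 132 ± 41.9 TPM and Gabarap 137.5 ± 75.2 TPM (SD, n = 2). Between these arms the TPM scale moved the median log2 fold change of all genes to -0.60. In CPM the means with rosiglitazone and on the diet alone were 177.2 and 159.6 for Sqstm1 and 91.1 and 98.3 for Gabarap. Bnip3, which encodes a mitophagy receptor of the outer mitochondrial membrane, ranked seventh in KO with 52.4 ± 42.2 TPM and first in WT with 313 ± 111 TPM. Gabarap had 94.5 ± 57.6 TPM in KO and 102.9 ± 21.3 TPM in WT. In KO the order after Sqstm1 was Gabarap, Nbr1, Vmp1, Map1lc3b and Rb1cc1, and neighbouring means in this run differed by less than their SDs. In WT the order after Bnip3 and Sqstm1 was Map1lc3a, Gabarap and Map1lc3b, whose means lay within each other's SDs. Atg14, the subunit that directs the class III kinase to autophagosome formation, was lowest in both genotypes, with 5.31 ± 2.80 TPM in KO and 7.19 ± 1.32 TPM in WT.

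KO was first set against WT as an average over the treatments, a contrast that does not depend on which WT treatment label is right. Of the 41 autophagy genes, 9 fell and 0 rose (adjusted p under 0.05, edgeR quasi-likelihood test), whereas 8.2% of all tested genes fell and 4.57% rose. The log2 fold change was below 0 for 36 of the 41, whether called or not. The median over the 41 was -0.36, against 0.05 over all tested genes. The genes with calls were Bnip3, Optn, Wdr45, Map1lc3a, Ulk2, Atg101, Wipi2 and Pik3r4, in order of p, and Atg4a, named here because it completes the count. They span receptors, an ATG8 protein, the starting kinase, lipid readers, a lipid kinase subunit and a protease. In a fit to protein-coding genes only, chosen after seeing the data, 9 members also fell, with Atg12 in place of Pik3r4. There 11.2% of the 16916 tested genes fell and 9.85% rose, so the share called lower was larger than over all genes. The summed level of all 41 genes was 2151, 2374 and 2184 CPM in KO with rosiglitazone and 2600 and 1841 CPM in KO on the diet alone, against 3464, 4220 and 3705 CPM in WT with rosiglitazone and 3874, 2566 and 2246 CPM in WT on the diet alone. The sums overlapped between the genotypes, because WT on the diet alone 2 and 3 lay within the KO range.

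**Figure D1:**
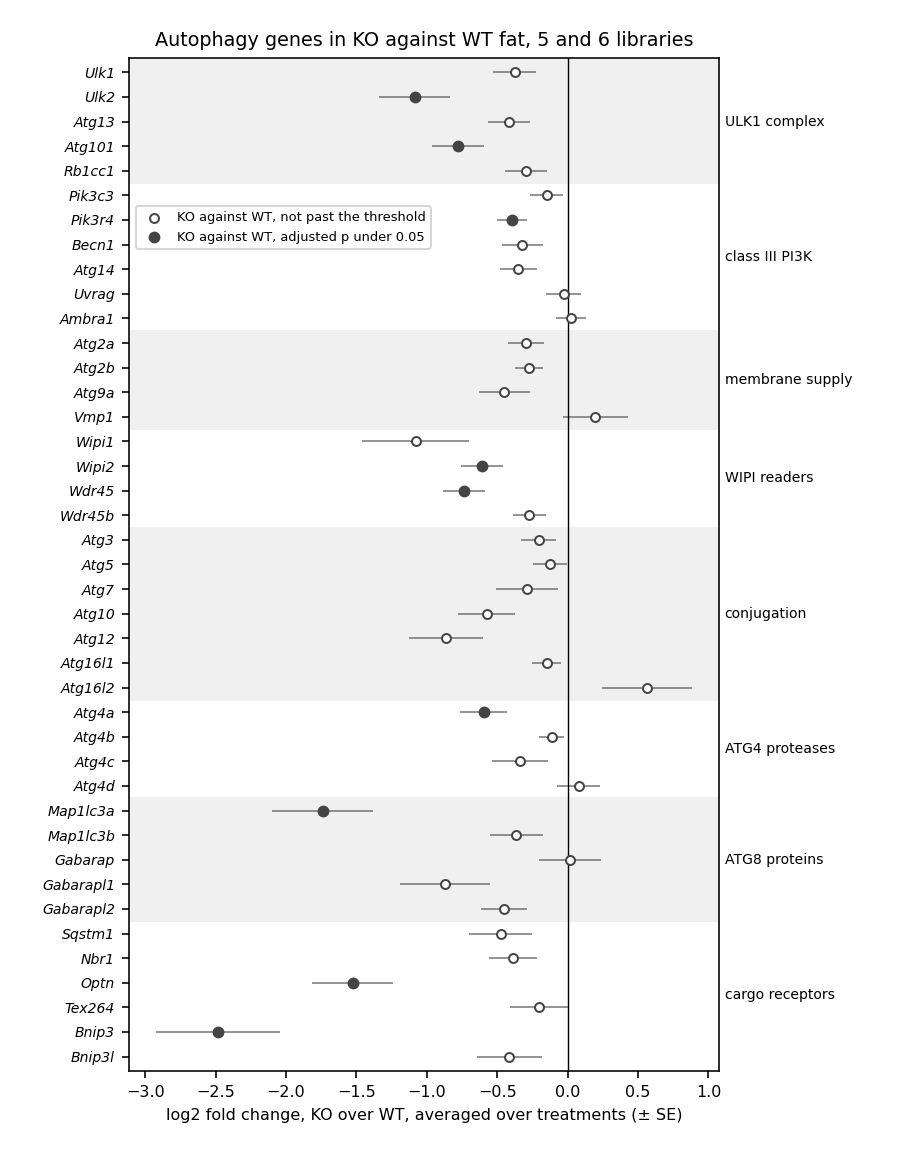
Log2 fold change of the 41 autophagy genes in KO (5 libraries) over WT (6 libraries), averaged over the treatments, on the x axis, with genes grouped by role down the y axis; bars are standard errors and filled points are the 9 genes with an adjusted p under 0.05. All 9 filled points lie left of 0, from Bnip3 at -2.48 to Pik3r4 at -0.39, and 5 open points lie right of 0.

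The ULK1 kinase complex starts autophagosome formation. Ulk2, which encodes a kinase related to ULK1, had 77.5, 126 and 88.3 CPM in KO with rosiglitazone and 115 and 60.1 CPM in KO on the diet alone, against 226, 295 and 243 CPM in WT with rosiglitazone and 217, 128 and 107 CPM in WT on the diet alone. Every WT library with rosiglitazone was above every KO library, and WT on the diet alone 3 lay below 2 of the 5 KO libraries. Ulk2 fell by 1.08 ± 0.25 on the log2 scale (adjusted p = 0.0216, edgeR). Atg101, which encodes a stabilising partner of ATG13, had 11.5, 11.4 and 9.20 CPM in KO with rosiglitazone and 9.54 and 7.50 CPM in KO on the diet alone, against 21.1, 27.4 and 23.4 CPM in WT with rosiglitazone and 15.2, 10.6 and 7.71 CPM in WT on the diet alone. It fell by 0.78 ± 0.18 on the log2 scale (adjusted p = 0.0234, edgeR), with 2 WT libraries on the diet alone inside the KO range. Ulk1, the kinase that mTORC1 phosphorylates, had 56.8, 66.6 and 50.8 CPM in KO with rosiglitazone and 54.8 and 42.9 CPM in KO on the diet alone, against 74.2, 94.7 and 76.8 CPM in WT with rosiglitazone and 72.6, 56.5 and 46.0 CPM in WT on the diet alone. Its log2 fold change of -0.38 ± 0.15 did not pass the test (adjusted p = 0.133, edgeR). Atg13, the adaptor subunit, was at -0.42 and Rb1cc1, the scaffold FIP200, at -0.30 on the log2 scale, and neither passed.

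The class III kinase complexes make the lipid phosphatidylinositol 3-phosphate on the growing membrane. Pik3r4, which encodes the regulatory subunit VPS15, had 43.2, 45.9 and 46.8 CPM in KO with rosiglitazone and 34.8 and 39.3 CPM in KO on the diet alone, against 57.2, 53.5 and 56.0 CPM in WT with rosiglitazone and 60.8, 49.7 and 45.6 CPM in WT on the diet alone. Only WT on the diet alone 3 lay within the KO range. Pik3r4 fell by 0.39 ± 0.11 on the log2 scale (adjusted p = 0.0383, edgeR). The catalytic subunit Pik3c3 was at -0.15, Becn1, the scaffold beclin, at -0.32, the endosomal subunit gene Uvrag at -0.03 and Ambra1, a regulator of the complex, at 0.02, and none of them passed. Atg14 was at 9.25 to 14.5 CPM in KO and 14.7 to 18.8 CPM in WT, so the genotypes did not overlap, yet its log2 fold change of -0.35 ± 0.13 did not pass (adjusted p = 0.107, edgeR).

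The membrane suppliers gave no call: the lipid transfer protein genes Atg2a and Atg2b were at -0.30 and -0.27, the scramblase gene Atg9a at -0.45 and Vmp1, an endoplasmic reticulum scramblase gene, at 0.20 on the log2 scale. Atg2b nevertheless ran from 86.4 to 97.0 CPM in KO and from 97.4 to 133 CPM in WT, without overlap. Bnip3, Atg14 and Atg2b were the 3 members with all 5 KO libraries below all 6 WT libraries, a pattern that 3.74% of all tested genes showed. No member had all KO libraries above all WT libraries, a pattern of 1.77% of all tested genes.

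WIPI proteins read phosphatidylinositol 3-phosphate, and WIPI2 recruits the conjugation enzymes to it. Wdr45, which encodes WIPI4, had 19.7, 19.9 and 18.7 CPM in KO with rosiglitazone and 20.3 and 18.5 CPM in KO on the diet alone, against 46.4, 51.1 and 39.0 CPM in WT with rosiglitazone and 30.6, 20.01 and 18.4 CPM in WT on the diet alone. The 5 KO libraries were nearly level, whereas the WT libraries spread widely and WT on the diet alone 2 and 3 sat at the KO level. Wdr45 fell by 0.74 ± 0.15 on the log2 scale (adjusted p = 0.0130, edgeR). Wipi2 had 64.3, 73.0 and 70.9 CPM in KO with rosiglitazone and 79.1 and 69.3 CPM in KO on the diet alone, against 126, 148 and 121 CPM in WT with rosiglitazone and 118, 84.2 and 70.5 CPM in WT on the diet alone. It fell by 0.61 ± 0.15 on the log2 scale (adjusted p = 0.0270, edgeR), with 1 WT library inside the KO range. Wipi1 had a lower log2 fold change, -1.08 ± 0.38, than either but did not pass (adjusted p = 0.0911, edgeR), and Wdr45b, which encodes WIPI3, was at -0.27.

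The enzymes that join ATG12 to ATG5 and ATG8 proteins to lipid gave no call among 7 genes. Atg12 itself came nearest, with -0.87 ± 0.26 on the log2 scale (adjusted p = 0.0577, edgeR). Atg10, the ATG12-conjugating enzyme gene, was at -0.58, the activating enzyme gene Atg7 at -0.29, Atg3 at -0.21, Atg16l1 at -0.15 and Atg5 at -0.13. Atg16l2, a relative of the scaffold gene Atg16l1, had the highest log2 fold change of the 41, 0.57 ± 0.32, and did not pass either (adjusted p = 0.266, edgeR). It had 44.7, 36.3 and 43.9 CPM in KO with rosiglitazone and 21.1 and 55.5 CPM in KO on the diet alone, against 22.8, 14.2 and 20.3 CPM in WT with rosiglitazone and 17.2, 48.2 and 49.4 CPM in WT on the diet alone. The 5 libraries at or below 22.8 CPM were also the 5 with the lowest B-cell marker sums, 21.7 to 334 CPM, against 593 to 989 CPM in the other 6. The part of lymphoid RNA in the level of Atg16l2 was not tested.

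Of the ATG4 proteases, which trim ATG8 proteins and release them from lipid, Atg4a fell by 0.60 ± 0.17 on the log2 scale (adjusted p = 0.0426, edgeR). It ran from 8.34 to 11.8 CPM in KO and from 11.2 to 18.6 CPM in WT, so that 1 KO library lay above the lowest WT library. Atg4b was at -0.11, Atg4c at -0.34 and Atg4d at 0.08, and none passed.

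ATG8 proteins coat the autophagosome and bind cargo receptors. Map1lc3a, which encodes LC3A, had 20.5, 28.3 and 20.8 CPM in KO with rosiglitazone and 29.3 and 11.3 CPM in KO on the diet alone, against 88.5, 102.9 and 91.9 CPM in WT with rosiglitazone and 96.4, 44.6 and 25.8 CPM in WT on the diet alone. Of the WT libraries, only WT on the diet alone 3 came down into the KO range. Map1lc3a fell by 1.74 ± 0.36 on the log2 scale (adjusted p = 0.0136, edgeR). Map1lc3b, the gene of the commonly assayed LC3B, had 126, 143 and 127 CPM in KO with rosiglitazone and 185 and 111 CPM in KO on the diet alone, against 185, 234 and 189.6 CPM in WT with rosiglitazone and 212, 138 and 128 CPM in WT on the diet alone. Its log2 fold change of -0.36 ± 0.19 did not pass (adjusted p = 0.226, edgeR). Gabarapl1 was at -0.87 ± 0.32 and did not pass (adjusted p = 0.101, edgeR); it ran from 20.2 to 57.0 CPM in KO and from 39.0 to 120.5 CPM in WT. Gabarapl2 was at -0.45 and Gabarap at 0.02 on the log2 scale, and neither passed.

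Among the cargo receptors, Bnip3 had 55.8, 87.2 and 81.7 CPM in KO with rosiglitazone and 135 and 31.5 CPM in KO on the diet alone, against 444, 701 and 575 CPM in WT with rosiglitazone and 575, 273 and 175 CPM in WT on the diet alone. Even the highest KO library lay below the lowest WT library. Bnip3 fell by 2.48 ± 0.44 on the log2 scale, 5.59-fold lower in KO (adjusted p = 0.00755, edgeR). Optn, which encodes the ubiquitin-binding receptor optineurin, had 24.2, 32.4 and 24.4 CPM in KO with rosiglitazone and 53.3 and 23.8 CPM in KO on the diet alone, against 119, 132 and 108 CPM in WT with rosiglitazone and 115, 56.5 and 45.5 CPM in WT on the diet alone. KO on the diet alone 1 lay above the lowest WT library, and the other 4 KO libraries lay below all WT libraries. Optn fell by 1.53 ± 0.29 on the log2 scale, 2.88-fold lower in KO (adjusted p = 0.00944, edgeR). Sqstm1 had 183, 192 and 157 CPM in KO with rosiglitazone and 203 and 117 CPM in KO on the diet alone, against 208, 282 and 258 CPM in WT with rosiglitazone and 315, 188 and 155 CPM in WT on the diet alone. The ranges overlapped and its log2 fold change of -0.47 ± 0.22 did not pass (adjusted p = 0.190, edgeR). Bnip3l, which encodes the BNIP3 relative NIX, was at -0.41, the aggregate receptor gene Nbr1 at -0.39 and the reticulum receptor gene Tex264 at -0.21, and none passed.

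**Figure D2:**
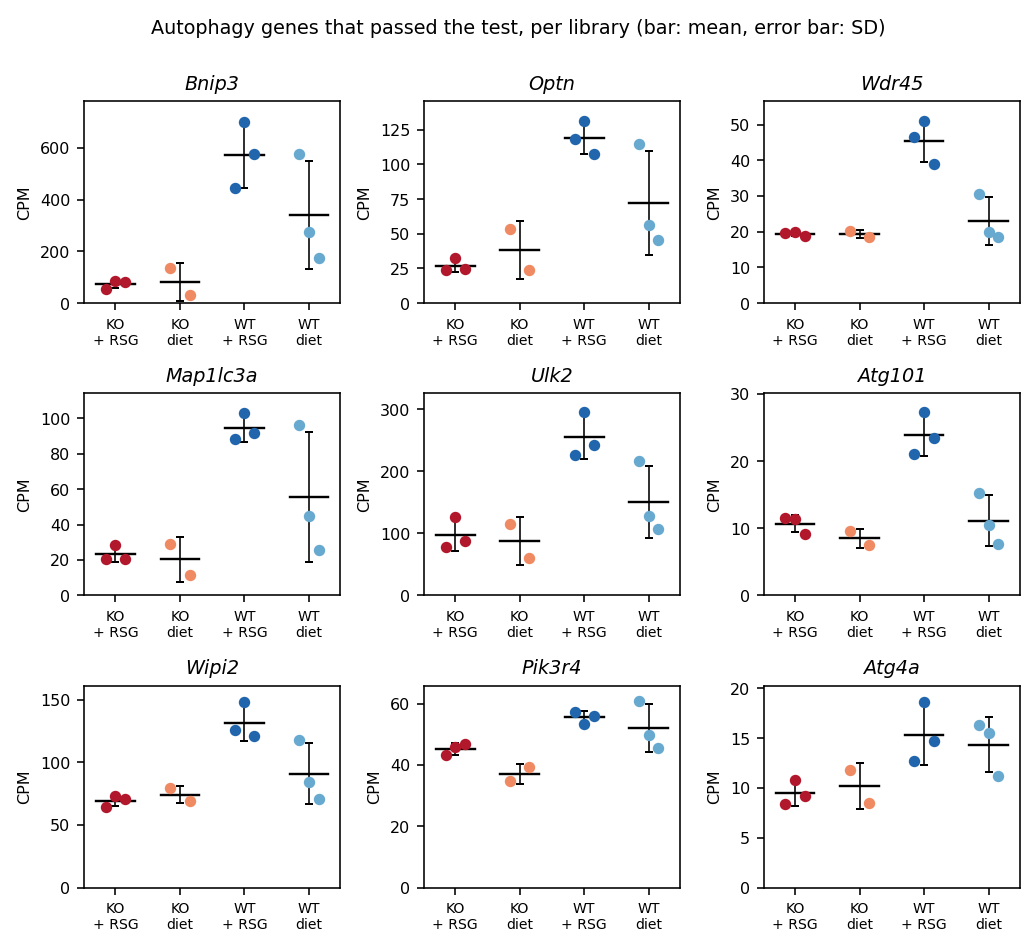
CPM per library (points) of the 9 autophagy genes called in KO against WT, in KO with rosiglitazone, KO on the diet alone, WT with rosiglitazone and WT on the diet alone; horizontal bars are means and error bars SDs (n = 3, 2, 3 and 3), and every y axis starts at 0. Bnip3 is the only panel in which all KO points lie below all WT points, and in most panels 1 WT library on the diet alone stands above the other 2.

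The calls rested in part on single libraries. Without KO with rosiglitazone 1 or 3, the count of called members was 5 or 4, and it was 4 without KO on the diet alone 2 and 4 without WT with rosiglitazone 2. In these 4 fits 4.11% to 4.92% of all tested genes were called lower. Without KO on the diet alone 1 the count was 15, with 11.6% of all tested genes called lower. Bnip3, Optn, Wdr45 and Map1lc3a passed in all 11 fits that left out 1 library, whereas Ulk2 missed the threshold in 4 of them, Atg101 in 3, Wipi2 in 6 and Pik3r4 in 9. Without the 4 libraries rich in muscle RNA, an alternative chosen after seeing the data, no member passed, and of 28243 tested genes 0% passed, while the log2 fold change of Bnip3 was -2.38 (adjusted p = 0.225, edgeR) and that of Optn -1.62 (adjusted p = 0.218, edgeR). With the log2 sum of the muscle markers as a covariate, Bnip3, Map1lc3a, Optn and Wdr45 passed, all lower in KO, whereas 4.9% of all tested genes fell and 2.08% rose.

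The level of mature adipocyte RNA differed between the genotypes. Of its 21 markers, 16 fell in KO, with a median log2 fold change of -1.94, and of 19 macrophage markers 17 rose, with a median of 1.56. Within WT on the diet alone, library 1 had 79954 CPM of adipocyte markers against 31852 and 27345 CPM in libraries 2 and 3, and it exceeded both of them in 38 of the 41 autophagy genes, against 42.2% of all tested genes. Within KO on the diet alone, library 1 had 15696 CPM of adipocyte markers and library 2 had 5023 CPM. Library 1 exceeded library 2 in 30 of the 41 genes, against 48.6% of all tested genes. Sums of endothelial, of pericyte and smooth muscle, and of adipocyte progenitor markers were also highest in library 1 of WT on the diet alone. They were at 1311, 1436 and 3527 CPM there, against at most 731, 667 and 2058 CPM in libraries 2 and 3. Skeletal muscle markers were not, at 658 CPM against 15312 and 1035 CPM. In KO on the diet alone these sums and that of macrophage markers (4715 against 1621 CPM) were higher in library 1. B-cell markers ran the other way, at 32.5 CPM in library 1 of WT on the diet alone against 884 and 791 CPM in libraries 2 and 3. In KO on the diet alone they were at 27 CPM in library 1 and 989 CPM in library 2. The part of adipocyte, lymphoid or other RNA in these orders was not tested. With the log2 sum of the adipocyte markers as a covariate, 11 members rose, 1 fell (Atg16l2), and none of the 9 genes above passed, whereas 8.64% of all tested genes rose and 4.71% fell. In that fit Gabarapl1 was at 1.26 (adjusted p = 0.00404, edgeR), Sqstm1 at 0.87 (adjusted p = 0.0313, edgeR) and Map1lc3b at 0.75 (adjusted p = 0.0177, edgeR), all higher in KO, whereas Bnip3 was at 0.21 (adjusted p = 0.718, edgeR) and Optn at 0.33 (adjusted p = 0.366, edgeR). Many of the markers are known PPARG targets and their sums did not overlap between KO and WT, so the genotype and the adipocyte RNA level cannot be told apart in these libraries.

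**Figure D3:**
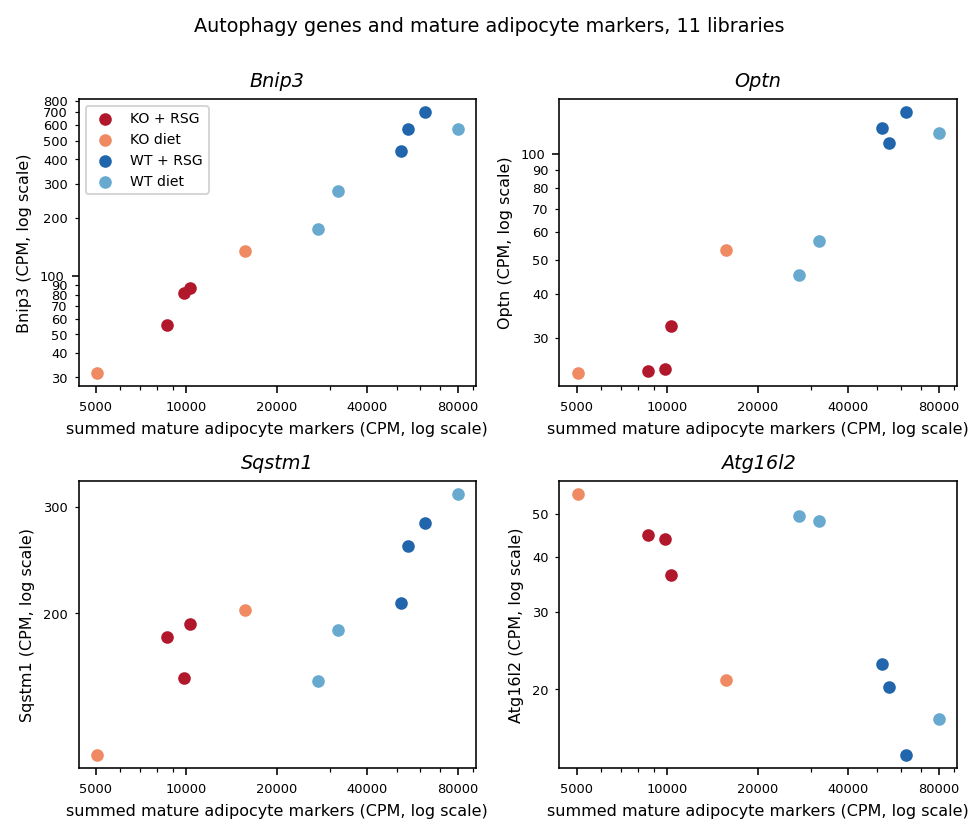
CPM of Bnip3, Optn, Sqstm1 and Atg16l2 (y axes, log scale) against the summed CPM of 21 mature adipocyte markers (x axes, log scale) in the 11 libraries, coloured by group. Bnip3 and Optn run upward with the marker sum across both genotypes, Sqstm1 does so less steeply, and Atg16l2 shows no steady run: it was at 55.5 CPM at the lowest sum and 17.2 CPM at the highest, but at 21.1 CPM in KO on the diet alone 1, below the 48.2 and 49.4 CPM of WT on the diet alone 2 and 3, whose sums are higher.

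Promoters, 250 bases before to 50 after the start, were read from RefSeq (GRCm38.p6) for 33 of the 41 genes, 39 promoters in all. They are shown for Bnip3 and Optn, the genes with the smallest p above, and for Atg3, the only member with CACGTG at 2 places. CACGTG, in capitals, is the E-box that TFEB and its relatives can bind. In GENCODE (GRCm38), Bnip3 spans chr7:138890836-138909519 and Optn chr2:5020642-5064051, both on the minus strand, and Atg3 spans chr16:45158785-45188538 on the plus strand. The promoter windows are chr7:138909457-138909756 on the minus strand (Bnip3), chr2:5064068-5064367 on the minus strand (Optn) and chr16:45158579-45158878 on the plus strand (Atg3).
Bnip3: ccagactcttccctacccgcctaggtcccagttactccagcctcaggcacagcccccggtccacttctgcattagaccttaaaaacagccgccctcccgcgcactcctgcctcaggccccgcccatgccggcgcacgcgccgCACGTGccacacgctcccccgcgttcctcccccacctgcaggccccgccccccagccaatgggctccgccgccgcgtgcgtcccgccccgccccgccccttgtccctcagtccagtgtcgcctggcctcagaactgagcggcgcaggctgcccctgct
Optn: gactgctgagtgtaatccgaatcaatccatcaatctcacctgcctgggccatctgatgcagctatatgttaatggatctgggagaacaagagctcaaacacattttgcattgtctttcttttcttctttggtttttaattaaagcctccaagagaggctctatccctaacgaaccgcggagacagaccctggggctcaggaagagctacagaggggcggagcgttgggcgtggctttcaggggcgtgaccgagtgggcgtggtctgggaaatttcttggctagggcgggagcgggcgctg
Atg3: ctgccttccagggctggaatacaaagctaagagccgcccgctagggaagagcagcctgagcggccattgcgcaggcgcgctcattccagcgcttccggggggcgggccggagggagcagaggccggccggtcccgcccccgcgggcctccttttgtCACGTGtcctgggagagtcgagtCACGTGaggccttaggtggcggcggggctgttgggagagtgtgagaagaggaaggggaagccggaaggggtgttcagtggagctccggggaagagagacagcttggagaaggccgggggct

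Searched on both strands, CACGTG was in 5 member promoters, those of Atg3, Atg5, Atg7, Atg14 and Bnip3, and in 7.15% of 32851 RefSeq promoters of the same length. In Bnip3 its first base lay 108 bases before the start, and in Atg3 the matches began 94 and 71 bases before it. The longer TCACGTG, which contains CACGTG, was in 3 member promoters and 3.77% of all. The full CLEAR palindrome of TFEB, which also contains CACGTG, was in 0 member promoters and 0.326% of all. The DR1 repeat that PPARG binds with its partner RXR, in its strict consensus, was in 0 member promoters and 0.0396% of all.

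On the diet alone, KO against WT gave no called member (edgeR), with 0.137% of all tested genes called. At an unadjusted p under 0.05 there were 3 members, all lower, against 10.5% of all tested genes, and DESeq2 called 1, Bnip3, against 2.96% of its genes. The 3 were Bnip3 at -2.03 ± 0.65 (adjusted p = 0.294, edgeR), Pik3r4 at -0.49 ± 0.16 (adjusted p = 0.302, edgeR) and Map1lc3a at -1.45 ± 0.53 (adjusted p = 0.361, edgeR). The sign was negative for 36 of 41 members, with a median of -0.25 against 0.02 over all tested genes. With WT grouped by the titles, 9 members passed, all lower in KO, whereas 6.67% of all tested genes fell and 4.03% rose under that grouping.

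With rosiglitazone in both genotypes, 8 members fell and 0 rose in KO against WT, whereas 9.5% of all tested genes fell and 5.47% rose (edgeR). The values per library are those above, and for each of the 8 genes the 3 KO libraries lay below the 3 WT libraries. The 8 were picked by this same contrast, so that order adds no further evidence. Bnip3 fell by 2.94 ± 0.58 on the log2 scale, 7.65-fold (adjusted p = 0.0104, edgeR), Optn by 2.14 ± 0.38, 4.42-fold (adjusted p = 0.00711, edgeR), and Map1lc3a by 2.03 ± 0.47, 4.08-fold (adjusted p = 0.0201, edgeR). The ULK1 complex genes Ulk2 and Atg101 fell by 1.39 ± 0.33 and 1.17 ± 0.24 (adjusted p = 0.0223 and 0.0132, edgeR). Of the WIPI genes, Wdr45 fell by 1.23 ± 0.20, Wipi2 by 0.92 ± 0.20 and Wdr45b by 0.52 ± 0.16 (adjusted p = 0.00498, 0.0143 and 0.0496, edgeR). Wdr45b had 42.5, 46.2 and 47.6 CPM in these KO libraries, against 63.9, 64.2 and 68.0 CPM in these WT libraries. Here the members' median was -0.50, against 0.05 over all tested genes. The count was 3 without KO with rosiglitazone 1, 3 without KO with rosiglitazone 3 and 3 without WT with rosiglitazone 2. In these 3 fits 3.26% to 3.62% of all tested genes were called lower. The count was 14 without KO on the diet alone 1, 14 without KO on the diet alone 2 and 19 (1 higher) without WT on the diet alone 1, with 11.4%, 11.6% and 14% of all tested genes called lower. All groups share 1 estimate of the spread in these fits. It was 0 with WT grouped by the titles, where 1.32% of all tested genes fell, and 0 without the muscle-rich libraries, where none of the tested genes passed. With the adipocyte covariate 8 members rose and 1 fell, whereas 5.76% of all tested genes rose and 2.2% fell. With protein-coding genes only, 9 members fell, Atg12 being added, whereas 12.9% of the tested genes fell and 10.7% rose.

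Rosiglitazone was then set against the diet alone within each genotype. The 2 KO arms are the same libraries that enter the genotype contrasts, as are the WT arms, so the contrasts share samples. In KO no member passed (edgeR), with 0.0148% of all tested genes called. At an unadjusted p under 0.05 there were also 0 members, against 8.36% of all tested genes, and DESeq2 called 0, against 1.43%. Log2 fold changes were above 0 for 21 members and below 0 for 20. The members with the smallest p were Atg2a at 0.41 ± 0.19 (adjusted p = 0.616, edgeR), Tex264 at 0.65 ± 0.31 (adjusted p = 0.641, edgeR) and Pik3r4 at 0.29 ± 0.16 (adjusted p = 0.687, edgeR). Tex264 had 44.8, 36.2 and 38.2 CPM in KO with rosiglitazone, against 32.6 and 18.3 CPM in KO on the diet alone, and Atg2a had 66.0, 80.4 and 77.9 CPM against 50.2 and 62.1 CPM in the same groups. Neither pair of groups overlapped, but both genes were named for their small p, so this adds no further evidence.

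In WT, by the characteristic, 2 members rose and 0 fell with rosiglitazone, whereas 1.55% of all tested genes rose and 0.593% fell (edgeR). Wdr45 rose by 0.98 ± 0.20 on the log2 scale, 1.98-fold (adjusted p = 0.0405, edgeR), and Atg101 by 1.10 ± 0.24, 2.15-fold (adjusted p = 0.0499, edgeR). For both genes the 3 libraries with rosiglitazone lay above the 3 on the diet alone. Uvrag, which encodes a class III kinase subunit of the endosomal complex, had 65.7, 62.7 and 67.2 CPM with rosiglitazone, against 114, 88.8 and 84.8 CPM on the diet alone, without overlap. Wdr45, Atg101 and Uvrag were named for their small p, so the lack of overlap adds no further evidence. The log2 fold change of Uvrag, -0.56 ± 0.16, did not pass (adjusted p = 0.116, edgeR). Uvrag was called lower by DESeq2 (adjusted p = 0.0111), with protein-coding genes only (adjusted p = 0.0446, edgeR) and with the adipocyte covariate (adjusted p = 0.0280, edgeR). DESeq2 called 3 members, Wdr45 and Atg101 higher and Uvrag lower, with 5.5% of its genes higher and 3.2% lower. The sign was positive for 37 of 41 members, with a median of 0.37 against -0.05 over all tested genes. With the titles in place of the characteristic, the same contrast has the opposite sign throughout. The count was 11 (10 higher) without WT on the diet alone 1, where 7.68% of all tested genes rose and 2.7% fell, and 0 without any 1 of WT on the diet alone 2 or 3, WT with rosiglitazone 1, 2 or 3, or KO with rosiglitazone 1, 2 or 3. In these 8 fits 0.0673% to 0.839% of all tested genes were called. It was also 0 without the muscle-rich libraries, where none of the tested genes passed, and with the muscle covariate, where 0.534% did. Muscle markers summed to 237, 10201 and 18953 CPM in WT with rosiglitazone and 658, 15312 and 1035 CPM in WT on the diet alone. Adipocyte markers summed to 51807, 62160 and 54422 CPM and to 79954, 31852 and 27345 CPM in the same libraries. Macrophage markers summed to 861 to 1057 CPM with rosiglitazone and to 1192 to 1677 CPM on the diet alone, without overlap. Of these 19 markers 4 fell with rosiglitazone, against 0.593% of all tested genes. B-cell markers summed to 334, 21.7 and 165 CPM and to 32.5, 884 and 791 CPM in the same order of libraries. The part of such RNA in these results was not tested. With the adipocyte covariate 9 members rose and 1 fell, whereas 6.32% of all tested genes rose and 3.71% fell. Many of the adipocyte markers are known PPARG targets, so in this contrast the covariate may take up part of the drug effect itself. The call of Uvrag with that covariate has the same limit.

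**Figure D4:**
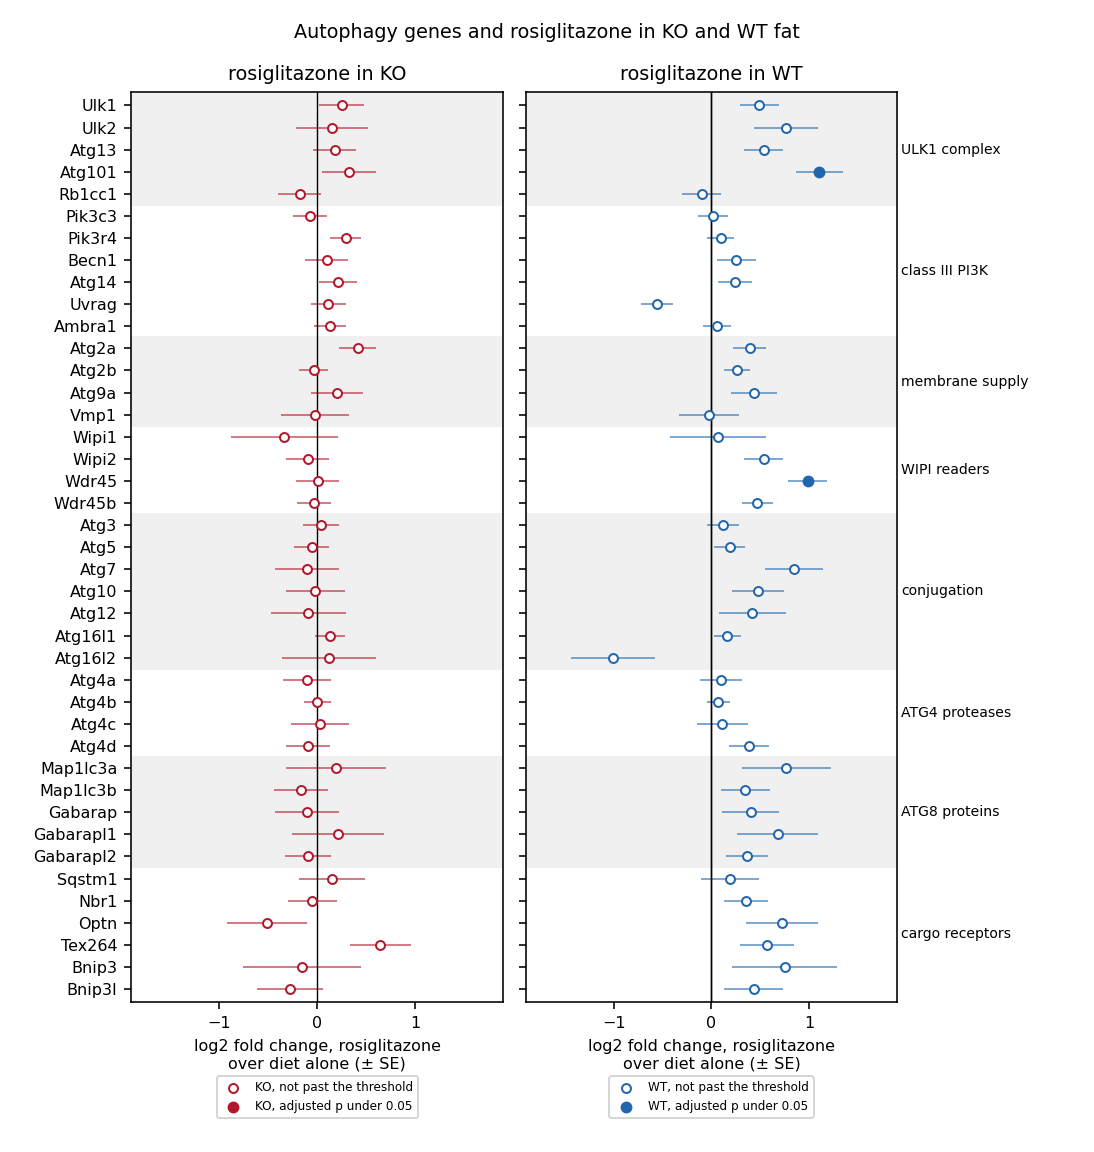
Log2 fold change of the 41 autophagy genes with rosiglitazone over the diet alone (x axes) in KO (left, 3 against 2 libraries) and WT (right, 3 against 3, grouped by the characteristic), with genes grouped by role down the y axis; bars are standard errors and filled points have an adjusted p under 0.05. No KO point is filled, and Atg101 at 1.10 and Wdr45 at 0.98 are the filled points in WT.

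The difference between these drug effects, KO minus WT, passed the test for no member (interaction term, edgeR), with 0.104% of all tested genes called. At an unadjusted p under 0.05 there were 3 members, against 10.5% of all tested genes, and DESeq2 called 0, against 2.17% of its genes. The 3 were Wdr45 at -0.98 ± 0.30 (adjusted p = 0.294, edgeR), Uvrag at 0.67 ± 0.24 (adjusted p = 0.384, edgeR) and Optn at -1.24 ± 0.55 (adjusted p = 0.469, edgeR). Without WT on the diet alone 1 the count was 1, Wdr45, which was below 0, with 0.422% of all tested genes called. With the adipocyte covariate, which called 4.57% of all tested genes, the count was 4, with 3 below 0 and Atg16l2 above 0. In that fit Wdr45 was at -0.92 (adjusted p = 0.0326, edgeR) and Optn at -0.98 (adjusted p = 0.0105, edgeR).

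Of 39 further autophagy genes, namely other receptors, regulators and fusion factors, all were tested, and 11 fell and 0 rose in KO against WT averaged over the treatments, whereas 8.2% of all tested genes fell and 4.57% rose. The median of the 39 was -0.37. The 6 with the smallest p were led by Trp53inp2, which encodes an LC3-binding nuclear and autophagosomal protein. Trp53inp2 ran from 44.6 to 150 CPM in KO and from 261 to 1290 CPM in WT, without overlap, and fell by 2.69 ± 0.47 on the log2 scale (adjusted p = 0.00679, edgeR). Calcoco1, a reticulum and Golgi receptor gene, fell by 0.89 ± 0.20, and Bcl2l13, a mitophagy receptor gene, by 1.26 ± 0.29 (adjusted p = 0.0180 and 0.0214, edgeR). Pink1, the kinase that marks damaged mitochondria, fell by 1.24 ± 0.30 (adjusted p = 0.0240, edgeR) and was at 57.6 to 120.3 CPM in KO and 87.0 to 260.1 CPM in WT. Stx17, the fusion SNARE gene, fell by 0.65 ± 0.16, and Fyco1, a transport adaptor gene, by 0.59 ± 0.15 (adjusted p = 0.0250 and 0.0285, edgeR). With rosiglitazone in both genotypes 12 of the 39 fell and 0 rose, against 9.5% and 5.47% of all tested genes, among them Bcl2l13 by 1.92, Trp53inp2 by 2.56 and the glycogen receptor gene Stbd1 by 1.36 on the log2 scale. On the diet alone none passed. In WT, 1 of the 39 rose with rosiglitazone, against 1.55% of all tested genes: Phb2, an inner-membrane mitophagy receptor gene, ranged over 73.1 to 88.4 CPM in treated libraries, against 28.9 to 37.6 CPM on the diet alone, and rose by 1.27 ± 0.18 (adjusted p = 0.0150, edgeR). None of the 39 passed for rosiglitazone in KO or for the interaction.

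The libraries also differed in the share of the autophagy gene reads that was assigned to intron-retaining transcripts. Transcripts annotated as retaining an intron took 20.05%, 17.6% and 18.6% of the autophagy gene reads in KO with rosiglitazone and 15.4% and 23.8% in KO on the diet alone, against 11.6%, 9.37% and 10.9% in WT with rosiglitazone and 9.20%, 16.4% and 19.0% in WT on the diet alone. The genotypes overlapped through WT on the diet alone 2 and 3. Over all genes the share was 7.28% to 10.6% in KO and 5.43% to 9.34% in WT, and KO on the diet alone 2 had the highest share by either measure. For Map1lc3b the share was 34.5% to 62.0% in KO and 19.1% to 48.3% in WT, and for Bnip3 it was at most 2.96% in any library. The pooled share also depends on how the reads divide among the genes, and single genes did not all follow it. For Atg4d the share was 28.1% to 41.4% in KO with rosiglitazone and 40.9% to 51.7% in WT with rosiglitazone. These shares rest on the transcript model's division of reads and were not tested. Gene totals as used above include such transcripts.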

How the data were processed

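Total RNA of inguinal fat went into Nextera XT libraries, and nothing in the labels' protocols speaks of strand. Per the submitters' processing notes the authors used Salmon and edgeR with the builds mm10 and GRCm38; tool versions: not given in the sources used here. Per the file headers, each deposited table gives an estimated count and a TPM value for every transcript of 1 library. Salmon divides reads among similar transcripts, so genes with close copies, such as the ATG8 genes, and genes overlapping on opposite strands are less certain.

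Of 132288 transcripts, 99.7% matched GENCODE M21 without the version; the rest, 0.0985% to 0.144% of reads per library, was dropped. The estimated counts were added up by gene, then rounded to whole numbers. Replicates were not duplicates, since chi-square per degree of freedom was 26.5 to 139 between them.

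Tests used edgeR's quasi-likelihood method, robust setting (edgeR 4.0.16, R 4.3.3), with 1 mean per group over all 11 libraries, TMM scaling, a filter at 10 counts and 15 in total by group, and Benjamini-Hochberg adjustment over 26960 genes at a threshold of 0.05. It was tested on simulated data first. The ± beside a log2 fold change is that model's standard error.

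The members, the further pathway genes and the marker lists were chosen with earlier results of these data known. Named were, per contrast, up to 8 called members, the 3 with the smallest p, 5 fixed genes in the averaged genotype contrast (Ulk1, Map1lc3b, Gabarapl1, Sqstm1 and Bnip3) and up to 6 called pathway genes. Other members are given by their values. Alternatives were RLE scaling, DESeq2 1.42.0, no filter, limma-trend (limma 3.58.1) on log2(TPM + 1), WT grouped by titles, a replicate block, muscle or mature adipocyte markers as a covariate, and each library left out.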

Additional observations from a re-analysis of the deposited data

How the results depend on the processing

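The count of called members in KO against WT averaged over treatments, 9, was 5 with limma-trend on log2(TPM + 1), 4 with the muscle covariate, 0 without the muscle-rich libraries and 4 to 15 with 1 library left out. Limma-trend called 6.12% of all tested genes lower and 0.931% higher. The adipocyte covariate gave 12, of which 11 were higher in KO. On the diet alone the count, 0, was 1 with DESeq2, 9 with WT grouped by titles and 14 with the adipocyte covariate. Of these 14, 13 were higher in KO and 1, Atg16l2, was lower, whereas 10.1% of all tested genes rose and 6.33% fell. With rosiglitazone the count, 8, was 15 with DESeq2, 18 with TPM, 0 by titles and 3 to 19 with 1 library left out. DESeq2 called 14 members lower and 1, Atg16l2, higher in KO, with 13.2% of its genes lower and 8.95% higher. By TPM all 18 were lower, with 14.1% of all tested genes lower and 0.827% higher. For rosiglitazone in WT the count, 2, was 3 with DESeq2 and with protein-coding genes only (Uvrag, lower, added in both), 1 with RLE scaling, 0 with TPM, 1 with the replicate block, 0 with the muscle covariate, 10 with the adipocyte covariate, 0 without the muscle-rich libraries and 0 to 11 with 1 library left out. The adipocyte covariate gave 1 for rosiglitazone in KO and 4 for the interaction, which was 0 to 1 with 1 library left out. The adipocyte covariate called 3.12% of all tested genes for rosiglitazone in KO and 4.57% for the interaction. For rosiglitazone in WT, RLE scaling called 1.34% of all tested genes higher and the replicate block 1.18%. Among protein-coding genes only, 3.57% were called higher and 2.03% lower in that contrast. Fits without the muscle-rich libraries and with protein-coding genes only were chosen after seeing the data. The muscle-rich libraries include 2 of WT with rosiglitazone, so 1 remains there, as it does for KO on the diet alone without 1 of its 2, and the lone library is assumed to vary like the others. The replicate block gave 7 in the averaged contrast and 8 with rosiglitazone, all lower, with 7.97% and 8.5% of all tested genes called lower. Replicate numbers showed no steady pairing, as correlations of same-numbered deviations were -0.419 to 0.608 and 6 of 15 exceeded 0.1. The highest was between KO on the diet alone 1 and WT on the diet alone 1. Deviations from means of 2 or 3 libraries constrain each other, so this check cannot exclude pairing. The log2 fold changes of 25 of 672 gene results changed sign. With the adipocyte covariate these were, averaged, Bnip3 (0.21), Optn (0.33), Map1lc3a (0.56), Ulk2 (0.41), Atg101 (0.16), Wipi2 (0.12), Ulk1 (0.37), Map1lc3b (0.75), Gabarapl1 (1.26) and Sqstm1 (0.87). They were Bnip3 (0.37) and Map1lc3a (0.71) on the diet alone, and Bnip3 (0.049), Map1lc3a (0.42), Ulk2 (0.22) and Wdr45b (0.099) with rosiglitazone. By titles they were Wdr45 (-0.98), Atg101 (-1.10) and Uvrag (0.56) for rosiglitazone in WT, and Wdr45 (0.98), Uvrag (-0.44) and Optn (0.21) for the interaction. By TPM they were Atg2a (-0.70), Tex264 (-0.26) and Pik3r4 (-0.61) for rosiglitazone in KO, where that scale moved the median of all genes to -0.60. It moved that median to -0.30 for KO against WT with rosiglitazone, -0.13 for rosiglitazone in WT and -0.46 for the interaction. The changes by titles follow from the exchange of the WT group labels. For the other changes the cause was not tested. Depth limits the lowest member, Atg10, to 81 reads in 1 library.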
